A study of Zea mays with 6 samples.

Results

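The transcript levels of unpollinated maize embryo sacs were compared with those of the nucellus in which the embryo sac lies. The comparison used 4 of the 6 RNA sequencing libraries of the study, 2 of embryo sac and 2 of nucellus. All came from the inbred line Q319, a homozygous maize stock, and both tissues were taken from slices of unpollinated ovules. The labels describe enzyme treatment of the slices for the embryo sacs and are less clear on how the nucellus was taken, so any difference in handling cannot be told apart from that between the tissues. The other 2 libraries, of embryo sacs at 14 to 16 h after pollination, were not compared. They entered the filter on low counts, the scaling between libraries and the estimate of the spread between replicates. They also counted in deciding which genes had a single listed model. The labels call the replicates biological, without stating which plants each came from, and the p-values measure only the spread between these samples.

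The embryo sac is the haploid female gametophyte of a flowering plant. It holds the egg cell, the synergids that attract the pollen tube, the central cell that gives rise to the endosperm, and the antipodal cells, which are many in maize. The nucellus is the diploid maternal tissue around it. Small secreted proteins, many of them rich in cysteine, are a known feature of gametophyte cells, and in maize ES1 to ES4 and EA1 act in the reception and guidance of the pollen tube.

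The deposited tables listed unique reads for 42007 transcript models of 31057 genes. The embryo sac libraries held 3.26 M and 3.02 M unique reads (M, mega), and the nucellus libraries held 3.01 M and 3.20 M. Of these genes, 23033 had a single listed model. Only 8328 models carried an informative protein name, and 4296 of those were the single model of their gene. This last set, which the gene classes below draw on, held 16.5% of the reads of embryo sac and 16.7% of those of nucellus. Levels are given as TMM-scaled RPKM, which are unique reads per kilobase of model, set to a common library size with the trimmed mean of M-values (TMM). Log2 fold changes are embryo sac over nucellus with an approximate standard error (SE). This SE was not fitted directly. It is the size of the log2 fold change divided by the square root of the F value of edgeR's quasi-likelihood test. Where the lower tissue has only a few reads, this SE can be smaller than the counting error, so it overstates the precision there.

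The reads of the embryo sac were concentrated on far fewer transcripts. The 10 models with the most reads took 13.6% and 13.9% of the reads of the embryo sac libraries, against 2.9% and 2.87% of those of the nucellus libraries. The most abundant models that together held 50% of all reads numbered 726 and 739 in embryo sac and 1662 and 1682 in nucellus. The replicates of a tissue followed each other closely, and the curves of both tissues lay apart over most of their length.

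**Figure D1:**
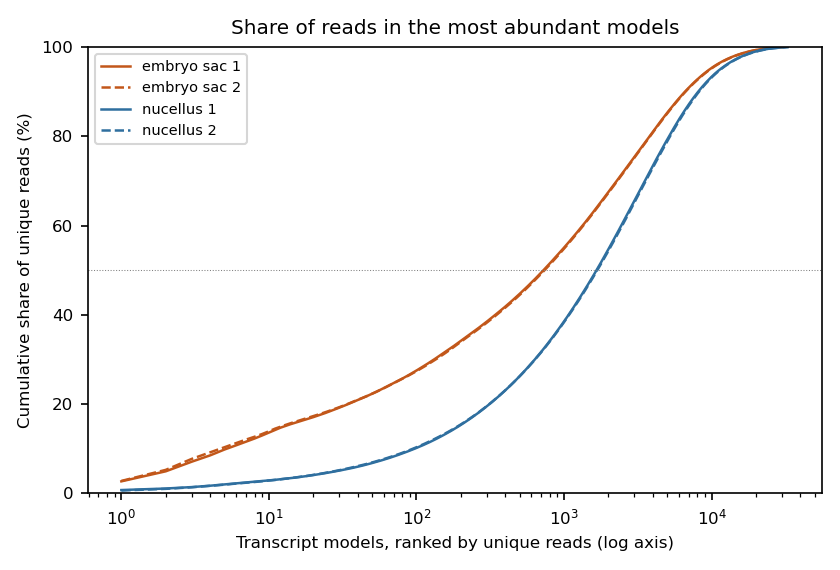
Cumulative share of unique reads (percent, vertical axis) against the number of transcript models ranked by reads (log axis) for the 2 embryo sac and 2 nucellus libraries. The dotted line marks 50% of the reads, reached at 726 and 739 models in embryo sac and at 1662 and 1682 in nucellus.

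With so many reads on few models, the scaling between tissues decides part of the result. TMM scaling, which sets the middle of the tested models level, was used for the calls, and scaling by the total count is given beside each gene class because it lowered every embryo sac value relative to nucellus. The median log2 fold change of all tested models was -0.00 with TMM scaling and -0.75 with total count scaling. Fold changes below are relative to that middle. In bulk samples, fewer cells of a type and less RNA per cell cannot be told apart.

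A model was called higher or lower in embryo sac when edgeR's quasi-likelihood test gave an adjusted p under 0.05 and the log2 fold change was at least 1 in size. Of 18844 models tested, 4368 were called higher and 3065 lower, which is 23.2% and 16.3%. Total count scaling called 15.9% higher and 39.6% lower, upper quartile scaling 20% and 22.7%, and DESeq2 20.2% and 12.1%. All 3065 lower models were also lower with total count scaling, while 2996 of the 4368 higher models (68.6%) were still called higher and none was turned round. The split between directions therefore depended on the scaling, since higher models made up 58.8% of calls with TMM scaling and 28.6% with total count scaling.

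With TMM scaling, the fitted differences towards embryo sac were also larger. Of the higher models, 1342 had a log2 fold change of at least 4, which is 30.7% of them, against 279 or 9.1% of the lower models. No nucellus read was found for 469 of the higher models, and no embryo sac read for 119 of the lower models. The fitted values of such models depend on the fit. Total count scaling would also move every value towards nucellus. The higher models took 53.6% and 52.8% of the reads of the embryo sac libraries and 11.1% and 11% of those of nucellus. The share of the lower models was 2.74% and 2.85% in embryo sac and 14.8% and 15.3% in nucellus. There were 364 models with at least 10 reads in each embryo sac library and no nucellus read. The reverse, at least 10 reads in each nucellus library and no embryo sac read, was met by 120 models, and by 266, 236 and 205 models without embryo sac replicate 1, embryo sac replicate 2 or nucellus replicate 1, since fewer libraries then have to meet the rule. Without the minimum of 10 reads the order was the opposite, with 1663 models read in both embryo sac libraries and in no nucellus library, against 2386 read in both nucellus libraries and in no embryo sac library.

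**Figure D2:**
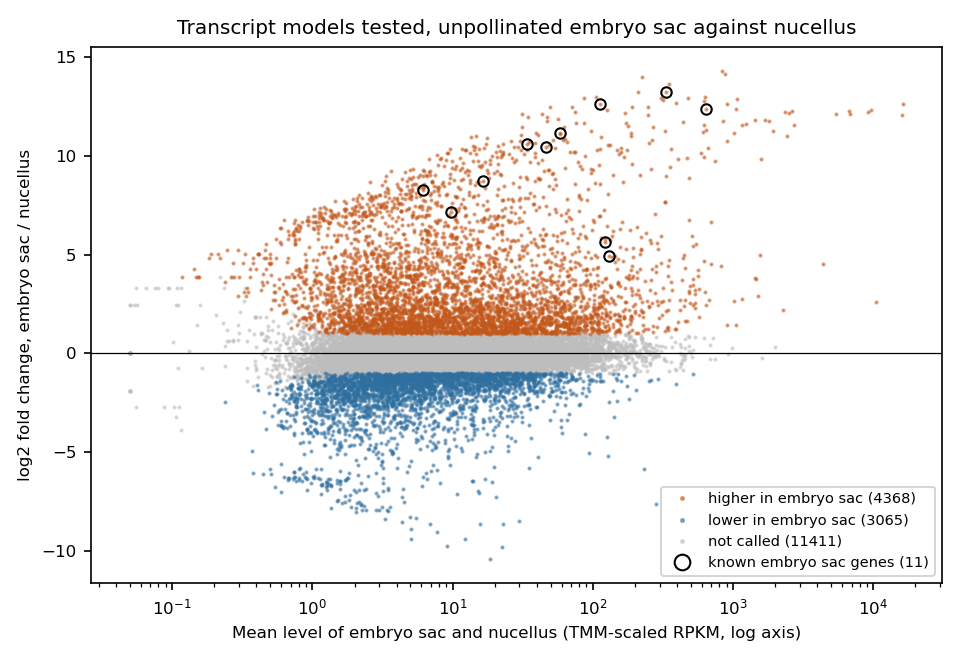
Log2 fold change of embryo sac over nucellus (vertical axis) against mean abundance (horizontal axis, log scale) for the 18844 transcript models tested, with the 4368 higher and the 3065 lower models coloured. The higher models reach further from 0 than the lower ones.

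Known genes of the embryo sac checked the labels. The text search matched 11 such models, all of which were read in both embryo sac libraries. Their summed level was 3098 and 2930 in embryo sac, against 14.6 and 11.38 in nucellus, and 8 of the 11 had no nucellus read. The gene named ZmEA1 (GRMZM2G456746), for the egg apparatus peptide that guides pollen tubes, had 32 and 34.3 in embryo sac and no read in nucellus. Another gene with an EGG APPARATUS-1 name (GRMZM2G157505) had 278 and 225 in embryo sac and 9.61 and 6.55 in nucellus. A gene named for the embryo sac and basal endosperm layer (GRMZM2G129157) had 246 and 233 in embryo sac, against 4.56 and 4.83 in nucellus. These last 2 genes make up most of the signal of the list in nucellus, and the part of embryo sac RNA in that signal was not tested. One ES model (GRMZM2G359064) had a level of 32.2 in the first embryo sac library and 6.63 in the second, with none in nucellus, so its size is poorly fixed.

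Markers of other tissues were low in both. The 47 models with pollen or anther names summed to 76.59 and 85.65 in embryo sac and to 104.7 and 116.5 in nucellus. Of these, 9 single-model genes passed the filter, with 2 higher and 3 lower in embryo sac (4 higher without embryo sac replicate 2). The pollen-specific protein C13 precursor (GRMZM2G317406) had 4.11 and 7.22 in embryo sac and no read in nucellus. The anther-specific protein SF18 precursor (GRMZM2G079638) had 0.552 and 1.48 in embryo sac and 12 and 13 in nucellus. The 7 models with names of integument, epidermis or vascular tissue summed to 15.13 and 16.2 in embryo sac, against 4.05 and 4.887 in nucellus. Among them the phloem-specific lectin (GRMZM2G123410) was read at 9.76 and 9.17 in embryo sac and not in nucellus. No list of defining nucellus genes was at hand, so that label was not checked by markers.

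The most abundant embryo sac transcripts were mostly genes without a known name. All 10 models with the highest levels in embryo sac were called higher, none of them had an informative name, and 8 had a level under 10 in both nucellus libraries. GRMZM2G149930 had 30655 and 34854 in embryo sac, against 5.04 and 5.29 in nucellus, a log2 fold change of 12.61 ± 0.19 (SE). GRMZM2G088861 had 33745 and 30845 in embryo sac, against 7.14 and 7.67 in nucellus. In both genes the replicates of a tissue lay close together and the tissues far apart. One model, GRMZM2G168651, was among the 10 highest in both tissues, with 16017 and 19767 in embryo sac, against 3148 and 2733 in nucellus.

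The nucellus had no such set. Of its 10 most abundant models, 2 were higher in embryo sac, 2 lower and 6 were not called. A peptidyl-prolyl cis-trans isomerase (GRMZM2G326111), an enzyme of protein folding, had 2224 and 2266 in embryo sac and 1720 and 1805 in nucellus. Tubulin alpha-3 (AC195340.3_FGT001) had 1518 and 1412 in embryo sac and 1609 and 1864 in nucellus, a log2 fold change of -0.25 ± 0.10 (SE) that was not called, although it was called lower with total count scaling.

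The gene classes that follow were built from the protein names of single-model genes, of which 2553 passed the filter on low counts. In that background 29.6% were called higher and 13.5% lower, and with total count scaling 21.7% and 35.1%. The count of each class is to be read against these shares. Of 55 classes, 41 had more members higher than lower, 12 had more lower than higher and 2 were even. With total count scaling, 21 classes had more higher members. All 390 called models in the tables from which the named examples come had levels in the embryo sac libraries that did not overlap those in the nucellus libraries. The rule for named examples itself required this, so it is a property of the choice. Over all models, 4355 of the 4368 higher and 3064 of the 3065 lower did not overlap either. The 390 had adjusted p by edgeR's quasi-likelihood test between 3.74e-118 and 0.0472.

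**Figure D3:**
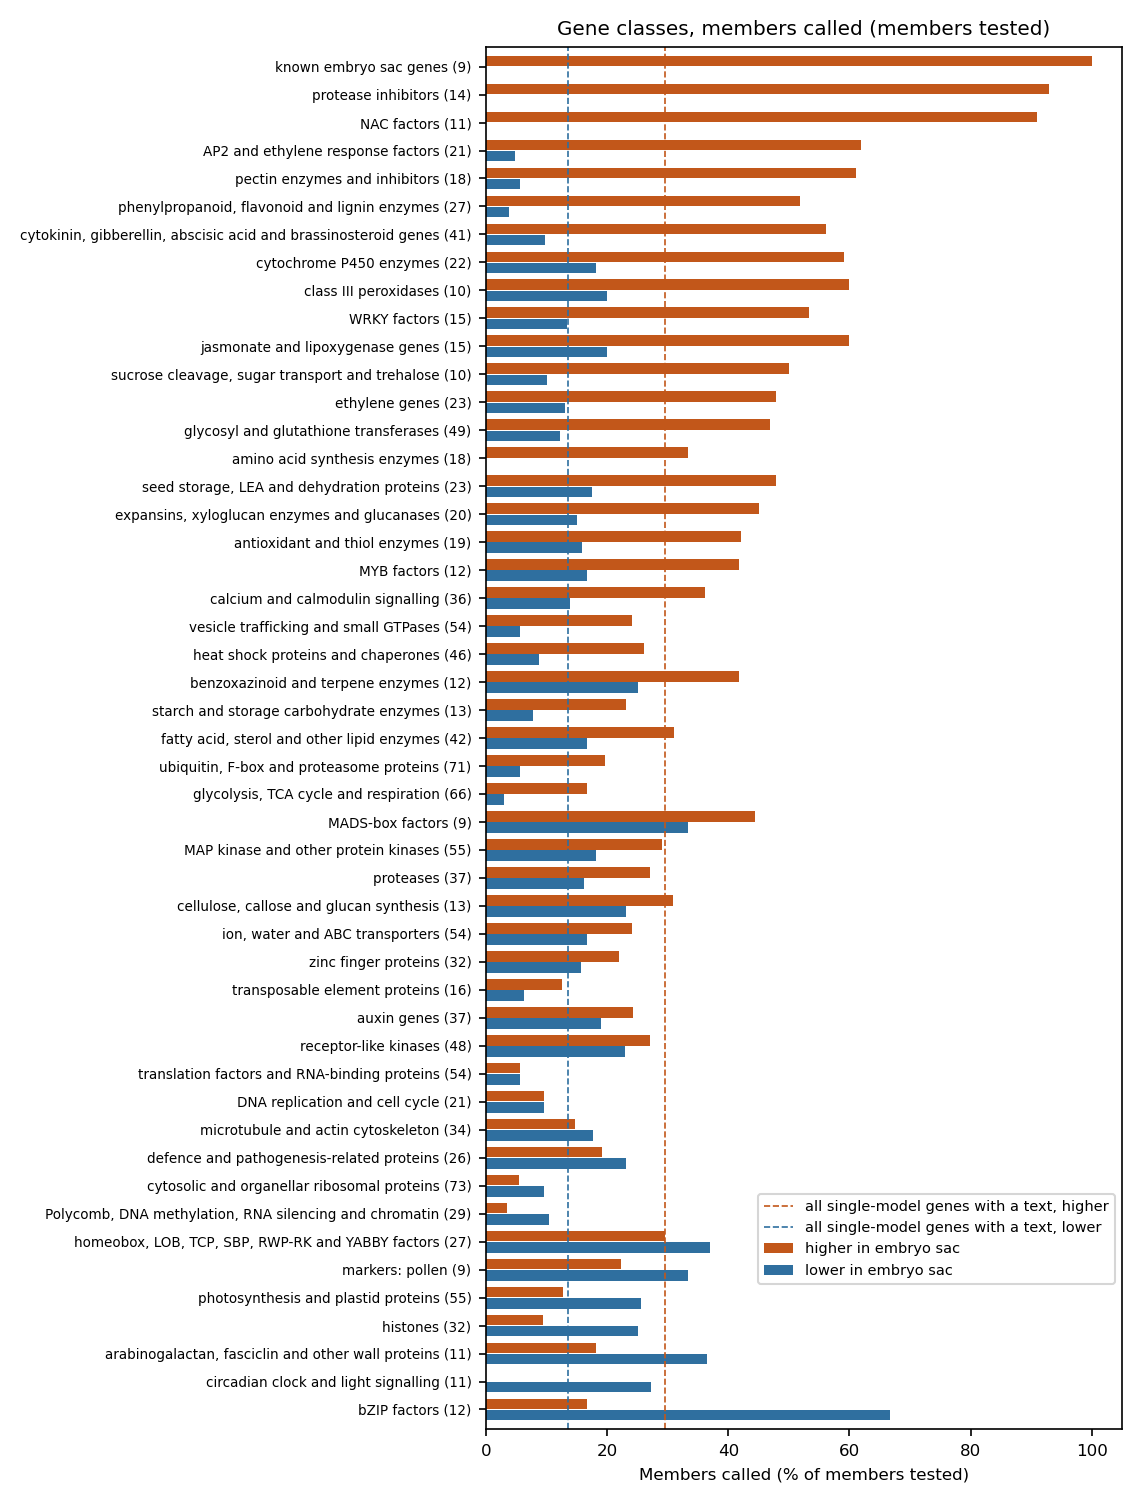
Share of the tested single-model genes in each class that was called higher or lower in embryo sac (percent), with the number tested in parentheses and dashed lines at the background of 29.6% higher and 13.5% lower. Known embryo sac genes, protease inhibitors and NAC factors stand at the top and bZIP factors at the bottom, with TMM scaling.

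Transcription factors differed by family. NAC factors, a plant-specific family that takes part in development, ageing and stress responses, were called higher in 10 of 11 tested members and lower in none, with 7 of 11 still higher with total count scaling. The search matched 17 such genes, so 6 did not pass the filter. A NAC factor (GRMZM2G181605) had 178 and 144 in embryo sac, against 0.277 and 0.131 in nucellus, a level 803 times as high (95% counting interval 274 to 3900). Another (GRMZM2G430849) had 95.5 and 96.5 in embryo sac and 0.394 and 0.993 in nucellus, a log2 fold change of 7.04 ± 0.23 (SE). NAC77 (GRMZM2G018436) had 26.8 and 29.4 in embryo sac and 0 and 0.167 in nucellus. The most abundant member in nucellus, NAC1 (GRMZM2G347043), was nearer to even, with 496 and 463 in embryo sac and 212 and 176 in nucellus, and its call was lost with total count scaling.

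The bZIP factors went the other way. Of 12 tested, 8 were lower and 2 higher, and 9 were lower and 1 higher with total count scaling. A bZIP family protein (GRMZM2G033413) had 2.9 and 2.07 in embryo sac, against 23.4 and 26.4 in nucellus, a log2 fold change of -3.31 ± 0.29 (SE). The ocs element-binding factor gene OBF1 (GRMZM2G479885) had 79.8 and 95.3 in embryo sac and 209 and 205 in nucellus, a log2 fold change of -1.25 ± 0.11 (SE). Its namesake GRMZM2G448607 had 494 and 611 in embryo sac, against 248 and 217 in nucellus, although its call was lost with total count scaling. The ABI5 member (GRMZM2G479760), named after an Arabidopsis factor of abscisic acid responses in seeds, had 42.3 and 51.3 in embryo sac and 9.19 and 10.2 in nucellus, a log2 fold change of 2.26 ± 0.18 (SE). The 8 bZIP genes of lower level thus included abundant and scarce transcripts alike.

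MADS-box factors, which set organ identity in flowers and act in gametophyte development, were split. Of 9 tested, 4 were higher and 3 lower, and with total count scaling 4 were higher and 5 lower. The AGL80-like gene GRMZM5G839969 had 268 and 245 in embryo sac, against 0.261 and 0 in nucellus, a level 2034 times as high (95% counting interval 364 to 80393). In Arabidopsis, AGL80 is needed for the central cell. A second AGL80-like gene (GRMZM5G853066) had 82.2 and 73.8 in embryo sac and no read in nucellus, which is at least 99.6-fold higher when 3 reads are taken as the limit in each nucellus library. MADS-box factor 22 (GRMZM2G046885) had 30 and 29.9 in embryo sac, against 1.51 and 1.69 in nucellus. On the nucellus side, MADS31 (GRMZM2G071620) had 3.15 and 1.06 in embryo sac and 19.1 and 16.9 in nucellus, a log2 fold change of -3.07 ± 0.30 (SE). Another MADS-domain factor (GRMZM2G102161) had 1.73 and 0.62 in embryo sac, against 15 and 17.3 in nucellus.

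AP2 and ethylene response factors were higher in 13 of 21 and lower in 1, and WRKY factors, many of which act in defence, were higher in 8 of 15 and lower in 2. With total count scaling these were 10 and 3 for the first family and 7 and 4 for the second. An AP2 domain gene (GRMZM2G369472) had 275 and 276 in embryo sac, against 7.72 and 14.2 in nucellus, a log2 fold change of 4.63 ± 0.15 (SE). WRKY55 (GRMZM2G030272) had 48.5 and 54.8 in embryo sac and 6.18 and 4.67 in nucellus.

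Homeobox, LOB, TCP, SBP, RWP-RK and YABBY factors were lower in 10 of 27 and higher in 8, and 16 and 7 with total count scaling. YABBY2 (GRMZM2G046829), of a family that in Arabidopsis marks the lower side of leaves and floral organs, had 0.335 and 0.359 in embryo sac, against 20.8 and 17 in nucellus. The nucellus level was 54.4 times that of embryo sac (95% counting interval 14.8 to 452). Zinc finger homeodomain protein 1 (GRMZM2G069365) had 0.33 and 0 in embryo sac and 8.26 and 10.9 in nucellus. The Dof-type factor Dof6 (GRMZM2G134545) had 0.422 and 1.21 in embryo sac and 18.2 and 22.8 in nucellus, a log2 fold change of -4.66 ± 0.31 (SE). Members of the homeodomain leucine zipper family IV, which acts in epidermal cells, were on both sides. GRMZM2G126646 had 1.57 and 1.8 in embryo sac, against 24.4 and 29 in nucellus, whereas GRMZM2G116658 had 89.6 and 97.3 in embryo sac, against 11.6 and 14.4 in nucellus. A further homeobox gene (GRMZM2G009794) had 24.2 and 24.8 in embryo sac and none in nucellus, a level at least 35.8-fold higher.

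Gibberellin is made from geranylgeranyl diphosphate by terpene synthases, then by P450 oxidases, and later by oxidases that include the 20-oxidases. Its receptor is GID1, and 2-oxidases inactivate it. Of 19 tested genes with gibberellin in their text, a family taken after its values were seen, 14 were higher in embryo sac and none was lower, and 12 and 1 with total count scaling. A P450 gene whose text does not name gibberellin stands outside that count and was picked after its values were seen. This gene, P450 88A1 (GRMZM2G093195), the ent-kaurenoic acid oxidase of the pathway, had 3161 and 3140 in embryo sac, against 3.9 and 2.99 in nucellus, a log2 fold change of 9.82 ± 0.17 (SE) with an adjusted p of 3.3e-109 by edgeR's quasi-likelihood test. Its mean level was 914 times the nucellus mean.

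Other genes of the pathway had lower levels. The text of GRMZM2G044481, also outside the count, reads kaurene synthase2, but its symbol CPPS2 names a copalyl diphosphate synthase, an earlier step of diterpene synthesis, so its place in the pathway is uncertain. It had 15.1 and 17.8 in embryo sac, against 0.0814 and 0.0768 in nucellus, a level 208 times as high (95% counting interval 57 to 1727). The gibberellin 20 oxidase 2 gene GRMZM2G099467 had 29.5 and 37.5 in embryo sac and 0.975 and 1.05 in nucellus, a log2 fold change of 5.0 ± 0.26 (SE). A second gene of that name (AC234528.1_FGT006) had 12.8 and 11.5 in embryo sac, against 0 and 0.141 in nucellus. Gibberellin 20 oxidase 1 (AC203966.5_FGT005) was the exception among these oxidases, with 11.3 and 8.1 in embryo sac and 13.1 and 19.6 in nucellus. It was not called, but was called lower with total count scaling. The inactivating 2-beta-dioxygenase (GRMZM2G051619) was also higher, with 47.2 and 36.3 in embryo sac, against 11.7 and 10.7 in nucellus. The GID1-like receptor gene GRMZM2G173630 had 111 and 103 in embryo sac and 20.6 and 23 in nucellus, a log2 fold change of 2.28 ± 0.12 (SE). Most of the remaining members were named GID1L2, a name given to relatives of the receptor in the carboxylesterase family, so that they do not by name alone count as receptors.

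Jasmonate is made from oxidised fatty acids through 12-oxo-phytodienoic acid reductases, and proteins with a ZIM (TIFY) motif include the repressors that its receptor removes. Of 15 tested genes of the jasmonate and lipoxygenase class, which takes in 3 genes with wound-induced texts, 9 were higher and 3 lower with either scaling. Without those 3, 8 of 12 were higher and 2 lower with either scaling. All 6 tested ZIM and TIFY genes were higher with TMM and with total count scaling, a family taken after its values were seen. The most abundant (GRMZM2G445634) had 862 and 707 in embryo sac, against 115 and 122 in nucellus, a log2 fold change of 2.72 ± 0.12 (SE). GRMZM2G173596 had 212 and 176 in embryo sac and 2.6 and 2.45 in nucellus, a log2 fold change of 6.23 ± 0.21 (SE). The reductases did not move as one. The opr3 gene (GRMZM2G156712) had 83.6 and 67.6 in embryo sac and 0.142 and 0.402 in nucellus, a log2 fold change of 7.97 ± 0.28 (SE). The name of opr3 alone does not show that its product makes jasmonate. The opr8 gene (GRMZM2G082087), one of those that make jasmonate in maize, had 6.74 and 7.69 in embryo sac, against 5.41 and 8.55 in nucellus, and was not called. The lipoxygenase lox11 (GRMZM2G009479) was lower, with 0.789 and 0.725 in embryo sac and 2.75 and 2.25 in nucellus.

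Cytokinin genes had members higher, lower and not called. The type-A response regulator RR6 (GRMZM2G040736), whose class damps cytokinin signalling, had 73.6 and 78.9 in embryo sac, against 1.44 and 1.63 in nucellus, a log2 fold change of 5.58 ± 0.29 (SE). Response regulator 2 (GRMZM2G392101) had 58.5 and 55.5 in embryo sac and 5.09 and 9.09 in nucellus. RR4 (GRMZM2G156019) was not called, with 11.4 and 12.8 in embryo sac and 9.11 and 9.57 in nucellus. Cytokinin dehydrogenase 6 (GRMZM2G404443), of the family that breaks cytokinin down, had 0.535 and 0.191 in embryo sac, against 4.58 and 7.46 in nucellus, a log2 fold change of -3.97 ± 0.54 (SE). Cytokinin dehydrogenase 5 (GRMZM2G325612) had no read in embryo sac and 2.19 and 6.79 in nucellus, a call that DESeq2 did not make. A further cytokinin dehydrogenase gene (GRMZM2G146644) had 13.3 and 14.1 in embryo sac, against 1.63 and 1.42 in nucellus.

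Brassinosteroid receptor texts went in both directions. The receptor kinase precursor gene GRMZM2G172330 had 21.7 and 19.2 in embryo sac, against 61.6 and 54.9 in nucellus, and GRMZM2G084587, named for the co-receptor BAK1, had 129 and 124 in embryo sac and 31.5 and 39.5 in nucellus. Of the whole class of cytokinin, gibberellin, abscisic acid and brassinosteroid genes, 23 of 41 were higher and 4 lower, and 20 and 9 with total count scaling. Gibberellin genes are part of this class. Of the 19 tested genes with that word in their text, 14 were higher, as given above, so the class total in part repeats that count.

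Auxin genes were higher in 9 of 37 and lower in 7, and more were lower than higher (15 against 7) with total count scaling. These shares were 24.3% and 18.9% with TMM scaling, against the background of 29.6% and 13.5%. SAUR56 (GRMZM2G414727), of a family of genes that auxin induces early, was the most abundant higher member, with 945 and 982 in embryo sac, against 7.85 and 10.1 in nucellus, a log2 fold change of 6.73 ± 0.15 (SE). Among the auxin response factors, ARF27 (GRMZM2G160005) had 115 and 131 in embryo sac and 34.8 and 32.1 in nucellus, while ARF29 (GRMZM2G086949) had 2.42 and 1.48 in embryo sac and 10 and 15 in nucellus. Ethylene genes were higher in 11 of 23 and lower in 3, and 9 and 7 with total count scaling. This class shares members with the AP2 and ethylene response factors counted above. Its most abundant higher genes are such shared ethylene-responsive transcription factors, so the counts of both classes are not separate results. The 3 lower genes were ethylene insensitive 2, an ethylene receptor 2-like gene and a 1-aminocyclopropane-1-carboxylate oxidase. The ethylene receptor 2-like gene (GRMZM2G075368) was lower, with 6.92 and 5.46 in embryo sac, against 20.1 and 20.7 in nucellus.

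**Figure D4:**
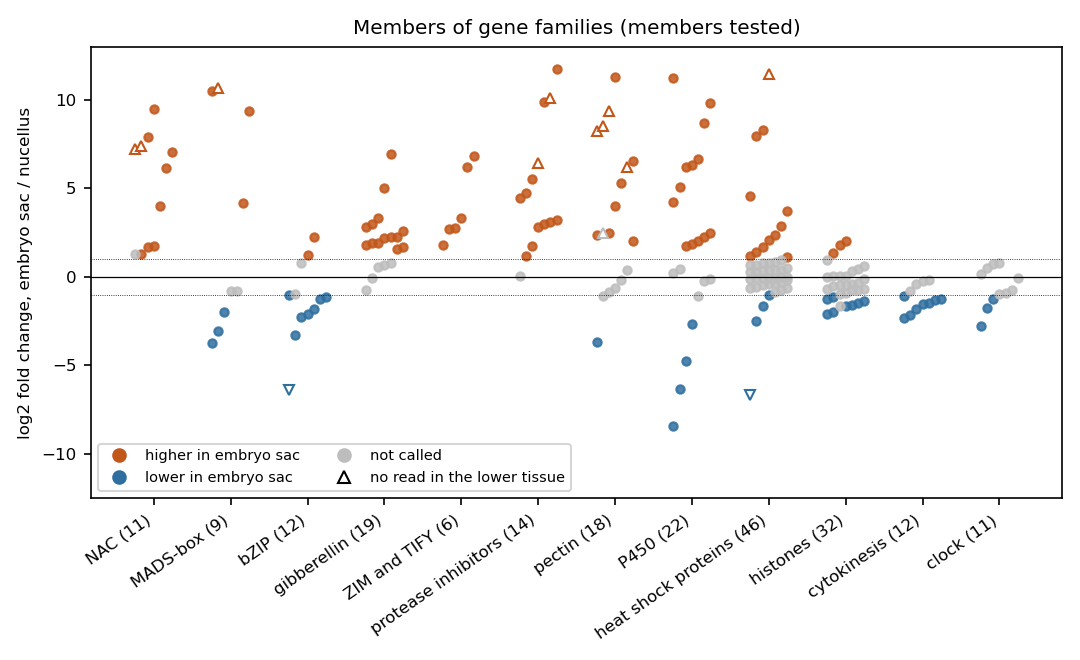
Log2 fold change of embryo sac over nucellus for every tested member of 12 gene families and chosen sets, with the number tested in parentheses and dotted lines at 1 and -1. Open triangles are members with no read in the lower tissue, whose fitted value depends on the fit and is no bound. The NAC, gibberellin, ZIM and protease inhibitor genes lie above 0 in nearly all members, and the bZIP and clock families lie mostly below it, with TMM scaling. The gibberellin, ZIM and cytokinesis sets were taken after their values were seen, so their direction describes the chosen genes only.

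Genes of the pectin part of the cell wall were mostly higher. Of 18 tested pectin enzymes and inhibitors, 11 were higher and 1 lower (2 lower when either embryo sac library or nucellus replicate 1 was left out), and 11 and 4 with total count scaling. The search matched 40 such single-model genes, so 22 did not pass the filter. A polygalacturonase (GRMZM2G137077), which cuts pectin chains, had 571 and 564 in embryo sac, against 15.1 and 13.4 in nucellus, a log2 fold change of 5.31 ± 0.13 (SE). Proteins with a pectinesterase inhibitor domain numbered 3 among the higher genes with no read in nucellus. The domain is named for blocking the removal of methyl groups from pectin, and the name alone does not show that these proteins do so. One of them (GRMZM2G343236) had 22 and 17.4 in embryo sac, at least 40.3-fold higher. The lower member carried the same domain (GRMZM2G157873), with 0 and 0.826 in embryo sac, against 4.94 and 6.29 in nucellus.

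Enzymes that loosen or remodel walls were higher in 9 of 20 and lower in 3, and 9 and 8 with total count scaling. Xyloglucan endotransglucosylase/hydrolase 23 (AC210669.3_FGT001) had 1404 and 1264 in embryo sac, against 47.8 and 68.4 in nucellus, a log2 fold change of 4.51 ± 0.13 (SE). An alpha-expansin (GRMZM2G073373) had 150 and 135 in embryo sac and 2.11 and 1.99 in nucellus. In the opposite direction, beta-expansin 4 (GRMZM2G103672) had 1.38 and 5.05 in embryo sac, against 19.7 and 18.8 in nucellus. Members of 1 family of wall proteins thus lay at both ends.

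Cellulose synthases and callose synthases stood on opposite sides among the called genes. Of the 13 tested synthases of wall glucans, 4 were higher and 3 lower, which became 2 higher and 7 lower with total count scaling. The 4 higher genes were 3 cellulose synthases and a cellulose synthase-like gene of family F, which makes mixed-linkage glucan. A cellulose synthase8 gene (GRMZM2G082580) had 120 and 138 in embryo sac, against 33.2 and 37.9 in nucellus, and kept its call with total count scaling. The 3 lower genes were callose synthases, whose product lines new cell plates and plasmodesmata. The 6-like gene (GRMZM2G465764) had 0.746 and 0.934 in embryo sac, against 8.34 and 10.1 in nucellus, a log2 fold change of -3.46 ± 0.26 (SE). The 11-like gene (GRMZM2G022856) had 9.82 and 9.92 in embryo sac and 27.1 and 27.3 in nucellus.

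Protease inhibitors were higher in 13 of 14 tested genes and lower in none, with 11 of 14 still higher with total count scaling. Their median log2 fold change was 3.83, or 3.16 with genes unread in nucellus set at their bound, against 0.16 for all single-model genes with a name. Cystatins, which block cysteine proteases, led the group. Cystatin6 (GRMZM2G401328) had 988 and 893 in embryo sac, against 1.12 and 0.793 in nucellus, a log2 fold change of 9.87 ± 0.22 (SE). Cystatin8 (GRMZM2G401374) had 72 and 58.2 in embryo sac and none in nucellus, a level at least 66.8-fold higher. The gene named plainly cystatin (GRMZM2G148925) was abundant in both tissues, with 232 and 197 in embryo sac and 87.5 and 103 in nucellus, and lost its call with total count scaling. Inhibitors of serine proteases had the same direction, among them a trypsin inhibitor (AC208221.3_FGT002) with 93.5 and 66.4 in embryo sac, against 12.1 and 6.29 in nucellus. A putative cystatin (GRMZM2G030717) was the member not called, at 9.76 and 12 in embryo sac and 10.7 and 9.85 in nucellus.

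The proteases themselves were nearer to the background. Of 37 tested, 10 were higher and 6 lower, with only 3 or 2 lower without embryo sac replicate 1 or nucellus replicate 1, and more were lower than higher (18 against 8) with total count scaling. Names with the word precursor, which mark proteins with a signal peptide in many entries, were carried by 15.8% of the higher models with an informative name, by 10.2% of the lower and by 7.13% of those not called. An ae1 protein precursor (GRMZM2G038024) had 1296 and 1206 in embryo sac, against 0.252 and 0.476 in nucellus, a level 3417 times as high (95% counting interval 1169 to 16575). An esterase precursor (GRMZM2G111710) had 352 and 394 in embryo sac and 0 and 0.295 in nucellus.

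**Figure D5:**
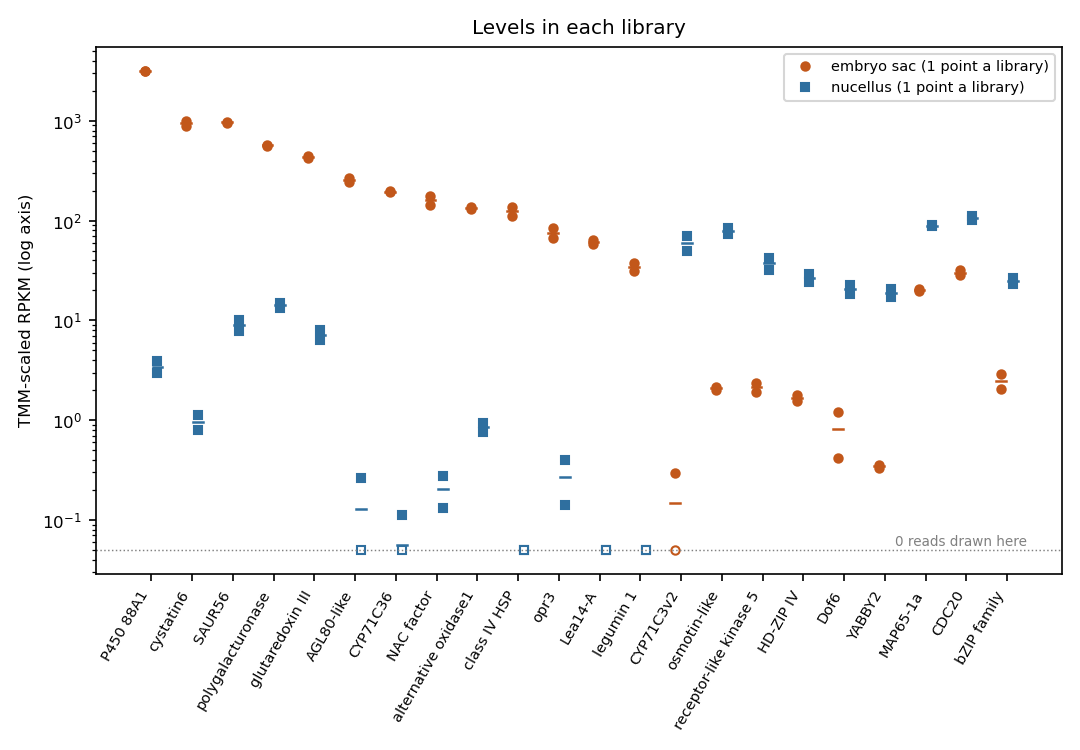
TMM-scaled RPKM (log axis) of 22 genes in each embryo sac and nucellus library, with short bars at the mean of each tissue and open symbols on the dotted line for libraries with 0 reads. For every gene drawn, the libraries of the tissues do not overlap, from P450 88A1 at 3161 and 3140 in embryo sac to the 9 genes on the right that were lower there.

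Cytochrome P450 enzymes, which oxidise hormones, lipids and defence compounds, were higher in 12 of 21 tested and lower in 4, and 12 and 5 with total count scaling, leaving out the P450 reductase that the class also holds. CYP71C36 (GRMZM2G164036) had 192 and 199 in embryo sac, against 0 and 0.112 in nucellus, a level 3397 times as high (95% counting interval 609 to 134229). CYP81A4 (GRMZM2G039278) had 26.4 and 25.7 in embryo sac and 0.24 and 0.227 in nucellus, a log2 fold change of 6.67 ± 0.36 (SE). CYP81N5 (GRMZM2G132450) was lower, with 1.45 and 1.24 in embryo sac, against 8.27 and 9.13 in nucellus.

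Benzoxazinoids are indole-derived defence compounds of grasses, built by a chain of P450 enzymes of the 71C family and then stored as glucosides. Genes that the search matched for this pathway lay on both sides. Of 12 tested benzoxazinoid and terpene enzymes, 5 were higher and 3 lower, and 4 and 6 with total count scaling. CYP71C3v2 (GRMZM2G063756) had 0.298 and 0 in embryo sac, against 49.7 and 69.3 in nucellus, and 71C1 (GRMZM2G172491) had 0.512 and 0.275 in embryo sac, against 26.3 and 40.8 in nucellus. The methyltransferase BX7 (GRMZM2G567452), a late step, had 2.02 and 2.17 in embryo sac and 15.1 and 24.5 in nucellus, a log2 fold change of -3.21 ± 0.50 (SE). The glucosyltransferase BX9 (GRMZM2G161335) had 102 and 98 in embryo sac, against 15.1 and 24.3 in nucellus, a log2 fold change of 2.33 ± 0.13 (SE). An indole-3-glycerol phosphate lyase (GRMZM5G841619) had 71.6 and 69.3 in embryo sac, against 26.1 and 24 in nucellus, and lost its call with total count scaling. Both of these 71C genes and BX7 were thus low in embryo sac. BX9 was higher there. The lyase and CYP71C36, a 71C gene of the same class given above, were also higher, but their names alone do not place them in this pathway.

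Other enzymes of secondary metabolism and detoxification were more often higher than lower. Phenylpropanoid, flavonoid and lignin enzymes were higher in 14 of 27 and lower in 1 (2 or 3 when either embryo sac library or nucellus replicate 1 was left out), and 11 and 8 with total count scaling. Dihydroflavonol-4-reductase (GRMZM2G057328), an enzyme of anthocyanin synthesis, had 51.2 and 40.6 in embryo sac, against 8.01 and 8.68 in nucellus. Glycosyl and glutathione transferases were higher in 23 of 49 and lower in 6, and 19 and 11 with total count scaling. Glutathione transferase5 (GRMZM2G308687) had 103 and 95.1 in embryo sac and 6.19 and 9.7 in nucellus. Glutaredoxins, small thiol reductases, had some of the larger differences, with 440 and 427 in embryo sac, against 6.33 and 8.09 in nucellus, for GRMZM2G318180. Its log2 fold change was 5.88 ± 0.17 (SE). A type 2 metallothionein-like gene (GRMZM2G161154), of proteins that bind metals, was lower, with 35.7 and 31.5 in embryo sac and 135 and 134 in nucellus.

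The classes of primary metabolism differed from one another, with single genes far from even. Of 66 tested genes of glycolysis, the TCA cycle and respiration, 11 were higher and 2 lower, below the background of 29.6% and 13.5%, and more were lower than higher (14 against 3) with total count scaling. Alternative oxidase1 (GRMZM2G125669), which lets mitochondrial electrons pass to oxygen without pumping protons, had 136 and 130 in embryo sac, against 0.948 and 0.767 in nucellus, a log2 fold change of 7.23 ± 0.21 (SE). Amino acid synthesis enzymes were higher in 6 of 18 and lower in none, and 5 and 2 with total count scaling. Genes of sucrose cleavage, sugar transport and trehalose were higher in 5 of 10 and lower in 1, and 5 and 3 with total count scaling. A sucrose-phosphate synthase (GRMZM5G875238) had 34.9 and 34.5 in embryo sac and 1.41 and 2.91 in nucellus. By contrast, a probable sucrose-phosphatase (GRMZM2G375015), the next step of sucrose synthesis, had 41.1 and 36.5 in embryo sac and 135 and 129 in nucellus. Starch and storage carbohydrate enzymes were higher in 3 of 13 and lower in 1, and 2 and 6 with total count scaling. An alpha amylase (GRMZM2G138468), which breaks starch down, had 28.9 and 30.5 in embryo sac, against 0.681 and 0.643 in nucellus.

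Lipid genes were likewise mixed, with 13 of 42 higher and 7 lower, and more lower than higher (13 against 7) with total count scaling. An 18 kDa oleosin (GRMZM2G480954), a coat protein of oil bodies known from seeds and pollen, had 265 and 186 in embryo sac, against 1.14 and 2.37 in nucellus, a log2 fold change of 6.95 ± 0.22 (SE). An omega-3 fatty acid desaturase (GRMZM2G354558) had 4.26 and 4.36 in embryo sac and 40.1 and 38.1 in nucellus, a log2 fold change of -3.18 ± 0.22 (SE). Of 7 tested lipid transfer proteins, 4 were higher and 2 lower with either scaling, and the lower calls were lost when embryo sac replicate 2 or nucellus replicate 2 was left out. A nonspecific lipid transfer protein (GRMZM2G387360) had 191 and 147 in embryo sac, against 10 and 7.88 in nucellus.

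Some storage and LEA genes, named for seeds, were read in embryo sacs that had not been pollinated. Of 23 tested genes of the storage, LEA and dehydration class, 11 were higher and 4 lower (2 lower when embryo sac replicate 2 or nucellus replicate 2 was left out), and 8 and 5 with total count scaling. This class takes in 6 early nodulin genes (3 higher, 1 lower) and 7 genes of dehydration-responsive element binding factors (3 higher, 1 lower). The other 10 had 5 higher and 2 lower, and 4 and 2 with total count scaling. Legumin 1 (GRMZM2G174883), a storage globulin, had 37.9 and 31.3 in embryo sac and none in nucellus, a level at least 93.9-fold higher. The late embryogenesis abundant gene Lea14-A (GRMZM2G050607) had 58.6 and 63.8 in embryo sac, against none in nucellus, a level at least 76-fold higher. The ABA-responsive gene GRMZM2G106622 had 574 and 538 in embryo sac and 3.22 and 4.97 in nucellus. A zein protein-body membrane protein (GRMZM2G094532) was lower, with 8.35 and 7.31 in embryo sac, against 21.8 and 24.7 in nucellus.

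Small heat shock proteins, chaperones that hold unfolded proteins, included several large differences in a class that was near the background. Of 46 heat shock proteins and chaperones tested, 12 were higher and 4 lower, and more were lower than higher (13 against 8) with total count scaling. The class IV gene (GRMZM2G375517) had 136 and 112 in embryo sac and none in nucellus, a level at least 171-fold higher. A 16.9 kDa class I gene (GRMZM2G158232) had 185 and 183 in embryo sac, against 0.801 and 0.252 in nucellus, a log2 fold change of 8.33 ± 0.27 (SE). The 17.4 kDa class I gene (GRMZM2G046382), by contrast, was read at 98.6 and 81.9 in embryo sac and at 39.8 and 43.2 in nucellus, and its call was lost with total count scaling and without embryo sac replicate 1. Heat shock factor 4 (GRMZM2G002131), of the family that switches such genes on, had 34.5 and 34.6 in embryo sac and 1.05 and 0.498 in nucellus, while AT-HSFB4 (GRMZM2G088242) had 3.4 and 4.81 in embryo sac and 18.7 and 30.9 in nucellus. The part of the enzyme treatment in the levels of stress genes cannot be told apart from that of the tissue.

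Defence genes were higher in 5 of 26 and lower in 6, and 4 and 12 with total count scaling. These shares were 19.2% and 23.1% with TMM scaling, against the background of 29.6% and 13.5%. An osmotin-like precursor (GRMZM2G429982), of the thaumatin-like pathogenesis-related proteins, had 2.02 and 2.17 in embryo sac, against 74.2 and 83.7 in nucellus, a log2 fold change of -5.23 ± 0.26 (SE). An endochitinase A precursor (GRMZM2G051943), an enzyme that cuts chitin, had 16.6 and 17.8 in embryo sac and 0.542 and 2.05 in nucellus.

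Signalling genes were divided. Receptor-like kinases were higher in 13 of 48 and lower in 11, and 10 and 23 with total count scaling. Receptor-like protein kinase 5 (GRMZM2G032132) had 1.92 and 2.34 in embryo sac, against 31.9 and 42.7 in nucellus, a log2 fold change of -4.13 ± 0.22 (SE). Calcium and calmodulin genes were higher in 13 of 36 and lower in 5, a direction that turned with total count scaling (6 higher, 11 lower). The EF-hand calcium-binding protein CCD1 (AC225718.2_FGT006) was among the most abundant named transcripts, with 2989 and 2401 in embryo sac, against 168 and 229 in nucellus, a log2 fold change of 3.75 ± 0.12 (SE). A CBL-interacting protein kinase gene (GRMZM2G177050), of kinases that calcium sensors switch on, had 214 and 191 in embryo sac and 20.3 and 33.7 in nucellus.

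Transporters of single substrates differed strongly in either direction. Amino acid permease 1 (GRMZM2G145989) had 49.7 and 60.3 in embryo sac, against 0 and 0.716 in nucellus, a log2 fold change of 7.13 ± 0.29 (SE). Leaving out 1 library gave log2 fold changes from 6.20 to 11.10 for this gene, so its size is poorly fixed. The phosphate transporter pht7 (GRMZM2G112377) had 202 and 186 in embryo sac and 28.7 and 44.5 in nucellus. An oligopeptide transporter (GRMZM2G368398) had 0.491 and 0.789 in embryo sac, against 10.3 and 10.3 in nucellus, a log2 fold change of -4.0 ± 0.35 (SE). An ABC transporter of the G subfamily (GRMZM5G870629) had 2.18 and 1.67 in embryo sac and 33 and 33.1 in nucellus. Ion, water and ABC transporters as a class were higher in 13 of 54 and lower in 9, and more were lower than higher (16 against 10) with total count scaling.

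Genes of DNA replication and the cell cycle were higher in 2 of 21 and lower in 2 (2 and 12 with total count scaling). A further set of 12 genes of cytokinesis, kinesins and cell division control was taken after its values were seen, and some of its genes are also in that class. Of these, 8 were lower and none was higher, and 10 and 0 with total count scaling, which describes the chosen genes only. The cytokinesis-like gene GRMZM2G100478 and the kinesin gene GRMZM2G024374 lost their calls when 1 library was left out. MAP65-1a (GRMZM2G101874), which bundles microtubules in the phragmoplast, had 20.7 and 19.6 in embryo sac, against 89.9 and 87.5 in nucellus, a log2 fold change of -2.15 ± 0.13 (SE). CDC20 (GRMZM2G063192), an activator of the anaphase-promoting complex, had 31.9 and 28.4 in embryo sac and 102 and 111 in nucellus, a log2 fold change of -1.83 ± 0.13 (SE). The syntaxin KNOLLE (GRMZM2G131525), which in Arabidopsis fuses the vesicles of the cell plate, had 4.98 and 3.21 in embryo sac and 9.78 and 13.6 in nucellus. Cyclin-dependent kinase inhibitor 2 (GRMZM2G101613), a brake on the cell cycle, was higher, with 45.9 and 48.7 in embryo sac, against 3.35 and 4 in nucellus, a log2 fold change of 3.66 ± 0.21 (SE).

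Histones were lower in 8 of 32 tested genes and higher in 3, and 19 and 2 with total count scaling. Copies of a histone are nearly identical, and how unique reads were shared out among them is not given in the sources used here, so single members are uncertain. An H3 gene (GRMZM2G418258) had 145 and 138 in embryo sac, against 313 and 415 in nucellus, and an H4-like gene (GRMZM2G479684) had 95.5 and 73.7 in embryo sac and 224 and 306 in nucellus. The 3 higher histones were all of the H2A type, such as GRMZM2G163956 with 13.4 and 16.8 in embryo sac and 3.73 and 3.67 in nucellus.

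Cytoskeleton genes were higher in 5 of 34 and lower in 6, and 4 and 17 with total count scaling. These shares were 14.7% and 17.6% with TMM scaling, against the background of 29.6% and 13.5%. Single genes of actin dynamics were high in embryo sac. An actin depolymerizing factor (GRMZM2G071327) had 90 and 75.7 in embryo sac, against 0.462 and 0.436 in nucellus, a log2 fold change of 7.40 ± 0.33 (SE). The formin-like gene GRMZM2G142779, of a family that starts actin filaments, had 159 and 181 in embryo sac and 11.9 and 13.8 in nucellus. In the secretory pathway, syntaxin 121 (GRMZM2G414540), a plasma membrane fusion protein, had 117 and 107 in embryo sac, against 22.9 and 23.6 in nucellus. Vesicle trafficking genes were higher in 13 of 54 and lower in 3 (5 without embryo sac replicate 1), a direction that turned with total count scaling (8 higher, 13 lower).

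The housekeeping classes had few calls in either direction with TMM scaling, below the background of 29.6% higher and 13.5% lower. Ribosomal proteins were higher in 4 of 73 and lower in 7 (3 or 4 without embryo sac replicate 1 or nucellus replicate 1), and translation factors and RNA-binding proteins in 3 of 54 each way. Their medians were -0.09 and -0.18 on the log2 scale, and -0.84 and -0.92 with total count scaling, which called 28 and 24 of them lower. Copies of ribosomal proteins are also similar to one another, so single members are uncertain.

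Photosynthesis and plastid proteins were lower in 14 of 55 and higher in 7, and 30 and 3 with total count scaling. A methylthioribulose phosphate enzyme of methionine salvage, matched by part of its text, is counted here and in the respiration class, and was lower only with total count scaling. A chlorophyll a-b binding protein 4 gene (GRMZM2G153184), of the light-harvesting antenna, had 0.701 and 0.501 in embryo sac, against 8.84 and 8.49 in nucellus, a log2 fold change of -3.79 ± 0.49 (SE). Photosystem I reaction center6 (GRMZM2G012324) had no read in embryo sac and 2.22 and 1.48 in nucellus. In the 8 tested genes of photosystems and chlorophyll a-b binding proteins, markers of green tissue, 2 were higher and 4 lower, and 1 and 5 with total count scaling. Clock and light signalling genes were lower in 3 of 11 and higher in none (1 higher when either embryo sac library was left out), and 6 and 0 with total count scaling. Phytochrome A (GRMZM2G181028), a receptor of far-red light, had 7.06 and 9.68 in embryo sac and 28.5 and 27.9 in nucellus, a log2 fold change of -1.77 ± 0.15 (SE). The clock gene TOC1b (GRMZM2G148453) had 18.2 and 16.5 in embryo sac, against 43.1 and 39.4 in nucellus.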

How the data were processed

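Per the labels' protocols, poly(A) RNA from isolated embryo sacs and from nucellus was sequenced on an Illumina instrument, with 2 samples per tissue. The authors deposited a table for each library with unique read counts and RPKM values of transcript models, per the file headers. The counts were used for all results, and RPKM recomputed from count, length and total matched the deposited values within a relative difference of 1.39e-08. Which aligner, counting program and genome build were used is not given in the sources used here. A model missing from a table was counted as 0. The fit across all 6 libraries used the quasi-likelihood test of edgeR 4.0.16 (R 4.3.3; filterByExpr, TMM, robust, Benjamini-Hochberg adjustment over all models tested), with DESeq2 1.42.0 as an alternative. Called models passed an adjusted p of 0.05 and a log2 fold change of 1 in size. Where the lower tissue had no read, the fold is a bound against 3 reads per library; with 1 to 3 reads in all, the ratio has an exact Clopper-Pearson 95% interval, and bounds and intervals cover counting error only. Total counts limit precision at low levels: 3 reads correspond to 1.09 (embryo sac) and 0.656 (nucellus) TMM-scaled RPKM for a model of 1 kb.

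Gene classes were searched in the protein names of single-model genes, and the search terms were adjusted after the names were seen. Among called single-model genes with a name whose libraries do not overlap between tissues, the rule for naming took the 15 with the largest fold in each direction at a level of at least 5 in the higher tissue, and per class and direction the 3 with the highest level. It added the 10 most abundant models of each tissue and the known embryo sac genes. Other members of whole small families were named after their values were seen. Members and lists were chosen with earlier results of these data known. Alternatives were other scalings, no filter, the 4 libraries alone, reads summed per gene, the replicate number as a block, a stricter fold and each library left out.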

Additional observations from a re-analysis of the deposited data

How the results depend on the processing

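Total count scaling called 2996 models higher and 7463 lower, and left 21 classes with more higher than lower members, against 41 with TMM. A threshold of 2 on the log2 scale gave 2742 higher and 1196 lower. Leaving out 1 library gave 4357 to 4511 higher models, 2536 to 2840 lower models and 40 to 44 classes. The detection counts then ranged over 405 to 545 for models without a nucellus read and 142 to 266 for models without an embryo sac read, since fewer libraries have to meet the rule. With the other alternatives the counts stayed within 1.5 times, at 3776 and 4287 with upper quartile scaling, 3813 and 2276 with DESeq2, 5197 and 3822 without the filter, 4076 and 3003 with 4 libraries, and 4162 and 2827 with reads summed per gene, higher and lower in that order. The replicate block gave 4336 higher and 2963 lower models and ended 3 calls of single models. Same-numbered libraries did not deviate together over all tested models (correlation -0.0194), and the labels state no pairing. A pairing that touches few models would not show in this value. Of the single models tabled, none turned round in direction where it was called, while 50 lost their call with total count scaling and 28 with DESeq2. Differences at a few reads per library are limited by depth.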
